A study of Homo sapiens with 8 samples.

Results

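Aspartate and glutamate are amino acids that cells interconvert by transamination and draw on for nucleotides, proline, arginine and glutathione. Mitochondria export aspartate through the malate-aspartate shuttle, a cycle of transaminases, malate dehydrogenases and inner-membrane carriers. In the cytosol aspartate supplies a nitrogen to each purine ring and most of the pyrimidine ring. VHL is the tumour suppressor lost in most clear cell renal carcinomas, and its product normally leads to the destruction of hypoxia-inducible factors when oxygen is present. The enzymes and carriers described here were 35 genes chosen by name, with earlier results of these data known. They were 7 of transamination and glutamine metabolism, 6 of the malate-aspartate shuttle and related carriers, and 4 of pyrimidine synthesis. Another 4 take up aspartate, release it or act on the product of its uptake. A further 9 were of purine synthesis, 3 of proline metabolism and 2 of glutathione synthesis. All 35 symbols were found among the 43682 gene symbols of the count tables, and 34 passed the filter on low counts.

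The comparison was made in UM-RC-2, an established line of clear cell renal cell carcinoma with a mutated VHL gene, grown in DMEM with fetal bovine serum. Lentivirus was used to express VHL or a construct labelled VEC, and both groups were selected with blasticidin at 10 µg/ml, so the controls carry the infection and the selection too. Each group had 2 RNA libraries, numbered 1 and 2. The labels give the molecule as total RNA for both replicate 1 libraries and as polyA RNA for both replicate 2 libraries. No label says that the replicates came from separate cultures, so the spread that p-values rest on may be technical.

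Libraries held between 16230291 and 50027348 counts, and 33 of the 35 genes had at least 20 counts in each of them. Libraries of the same number were alike and libraries of the same group were not: Pearson's r of log2(CPM + 1) across 21673 genes was 0.991 and 0.978 between VEC and VHL of one number, and 0.502 and 0.531 within a group. These correlations run across genes, which are no replicates, and are descriptions. Pseudogenes made up 1.37% and 2.07% of the replicate 1 libraries but 31.3% and 24.9% of the replicate 2 libraries. VHL was compared with VEC within each number, with the replicate number as a blocking term (the blocked fit). Its p-values rest on the spread left once the level of each number is removed, with 1 residual degree of freedom, moderated across genes. They do not measure the larger spread between the libraries of a group. A second fit without the number (the group-only fit), which keeps that larger spread, is given where it differs. VHL transcripts were higher in the VHL library of each pair, at 146 against 37.1 CPM (counts scaled to the normalised library size) and at 151 against 88.9. CA9, a target of hypoxia-inducible factors and a marker of this carcinoma, was at 67.5 CPM in VEC and 1.55 in VHL of replicate 1, and at 61.8 and 1.40 in replicate 2, and fell (edgeR, adjusted p = 2.04e-76). All 6 renal markers had counts in all 4 libraries, and their summed level was lower in VHL of each pair and lower in replicate 2, at 3154 and 1706 CPM in replicate 1 and 1399 and 793 in replicate 2, most of it LRP2. The 4 epithelial markers summed to 84.1 to 122 CPM, most of it KRT8 and KRT18, while EPCAM and CDH1 had 0 counts in both replicate 1 libraries. The 3 endothelial markers had 0 counts in all 4 libraries. The 4 fibroblast markers summed to at most 0.465 CPM. The summed level of 4 blood cell markers was at most 0.0536 CPM in replicate 1 and 45.3 and 45.5 CPM in replicate 2, of which LYZ gave most. The blood sum moved with the replicate number and the renal sum with both the number and the group, and their part in the results was not tested.

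GPT and ASL fell in VHL cells, and no member rose. Of the 34 genes tested, 2 passed an adjusted p of 0.05 in the blocked fit (5.88%), both lower, against 3.1% of all 24417 genes in either direction (2.35% lower, 0.749% higher) and 3.65% of protein-coding genes (2.52% lower, 1.13% higher). A fit of protein-coding genes alone called the same 2 members, against 7.18% of those genes (4.62% lower, 2.56% higher). A count of 2 is close to that background. The median log2 change of the 34 was 0.07 (quartiles -0.16 and 0.25), beside -0.03 over all genes and 0.01 over protein-coding genes. Of the 34, 20 had a fitted change above 0 and 14 below, beside 7094 above and 6814 below over protein-coding genes. In the group-only fit 0 members passed, 0 had an unadjusted p under 0.05, and 0 of all genes were called (0%; edgeR quasi-likelihood test; 22 at an unadjusted p under 0.05, and 6 genes, none of them a member, with DESeq2). In a bulk culture, fewer expressing cells and less RNA per cell cannot be told apart.

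Promoter sequences are shown first for ASL, GCLM, PPAT and PAICS, of which only ASL passed the test in the blocked fit. They come from the RefSeq promoter table of GRCh38.p14, while the counts rest on hg19, and that table held 43 windows for 30 of the 35 members. GPT, the other gene called, had no window there. The first stretch is the promoter of ASL, which passed the test. The second is the promoter of GCLM, which had the highest fitted change of the 34. The third is the interval between the start sites of PPAT and PAICS, purine genes that are transcribed away from each other. Each is written 5′ to 3′ and ends at the base before the start site of the gene named first.
ASL, chr7:66075569-66075818, plus strand: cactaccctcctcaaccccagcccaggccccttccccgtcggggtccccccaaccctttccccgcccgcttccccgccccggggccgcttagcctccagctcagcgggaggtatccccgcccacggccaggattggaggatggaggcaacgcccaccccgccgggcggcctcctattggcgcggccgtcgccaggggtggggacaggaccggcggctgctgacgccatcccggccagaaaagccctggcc
GCLM, chr1:93909431-93909680, minus strand: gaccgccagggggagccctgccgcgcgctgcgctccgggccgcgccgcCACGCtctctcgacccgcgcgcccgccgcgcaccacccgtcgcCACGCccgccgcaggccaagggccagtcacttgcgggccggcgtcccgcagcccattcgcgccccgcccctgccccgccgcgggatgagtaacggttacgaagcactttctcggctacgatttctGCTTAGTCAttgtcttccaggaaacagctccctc
PPAT and PAICS, chr4:56435616-56435751, minus strand: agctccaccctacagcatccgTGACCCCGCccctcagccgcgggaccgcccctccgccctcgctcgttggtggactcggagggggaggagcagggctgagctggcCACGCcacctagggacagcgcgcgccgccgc

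Capitals mark every match, on either strand, to the 4 motifs searched: ACGTG and GCGTG, the cores of the hypoxia response element, CACGTG, the E-box that contains ACGTG, and TGACNNNGC, the core of the antioxidant response element. The ASL stretch held none of the 4, which says only that these letters are not in it. The GCLM stretch held GCGTG at 2 places and TGACNNNGC at 1, all on the opposite strand. The interval between PPAT and PAICS spans 136 bases and held GCGTG at 1 place, on the opposite strand, and TGACNNNGC at 1, on the strand shown. Windows run from 250 bases before to 50 bases after a start. The windows at the PPAT and PAICS starts that bound the interval reach beyond it. Each of them held 1 CACGTG. Those letters read ACGTG on both strands, and so also give the 2 matches to ACGTG counted in each window. As the windows overlap, the site may be the same in both. Over all 35116 windows of the table, 21.4% held ACGTG, 36.5% held GCGTG and 13.3% held TGACNNNGC. Of the 43 windows of members, 27.9%, 58.1% and 14% did. CACGTG was present in 18.6% of the windows of members and in 7.26% of all windows. Some genes have several windows, those of PPAT and PAICS overlap, and a match is a description, not a binding site.

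GPT, the cytosolic alanine transaminase that moves an amino group between alanine and glutamate, fell by 1.30 on the log2 scale, or 2.46-fold. In replicate 1 the VEC library held 307 counts and the VHL library 131, and in replicate 2 they held 170 and 45. In normalised CPM these were 13.3 and 7.02, then 3.73 and 1.10. The VHL library was the lower one in each pair, but VHL of replicate 1 lay above VEC of replicate 2, so the groups overlapped. The log2 changes were -0.91 and -1.70 in the pairs, with -1.30 ± 0.35 (SE) over the 2 libraries of each group in the blocked fit (adjusted p = 0.0109 in edgeR's quasi-likelihood test). The group-only fit gave -1.06 ± 1.57 (adjusted p = 0.999991, edgeR), and the blocked Wald test of DESeq2 gave an unadjusted p of 0.0200 with no adjusted value. The span of GPT overlaps that of the lncRNA LOC101928953 in the RefSeq annotation, and how reads in overlapping genes were counted is not stated.

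GPT2, the mitochondrial form of the same transaminase, had 99.3 CPM in VEC and 80.9 in VHL of replicate 1, and 34.3 and 24.9 in replicate 2. It was lower in VHL in each pair, at -0.29 and -0.46, but did not pass the test (blocked -0.38 ± 0.21, adjusted p = 0.487, edgeR). GOT2, the mitochondrial aspartate transaminase, had 86.3 and 109.6 CPM in replicate 1 and 64.8 and 74.1 in replicate 2. Its changes of 0.34 and 0.19 were in the opposite direction to those of GPT2 and did not pass either (adjusted p = 0.740, edgeR). The other tested genes of this role were GOT1, the cytosolic aspartate transaminase, GLUD1, glutamate dehydrogenase, and GLUL, glutamine synthetase. GLUD1 has a near-identical copy, GLUD2, so its counts are uncertain. Their fitted changes lay between -0.15 and 0.08, and in none of them did the pairs share a sign. GLS2, a glutaminase, was not tested, with 3 and 0 counts in replicate 1 and 1 and 2 in replicate 2.

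**Figure D1:**
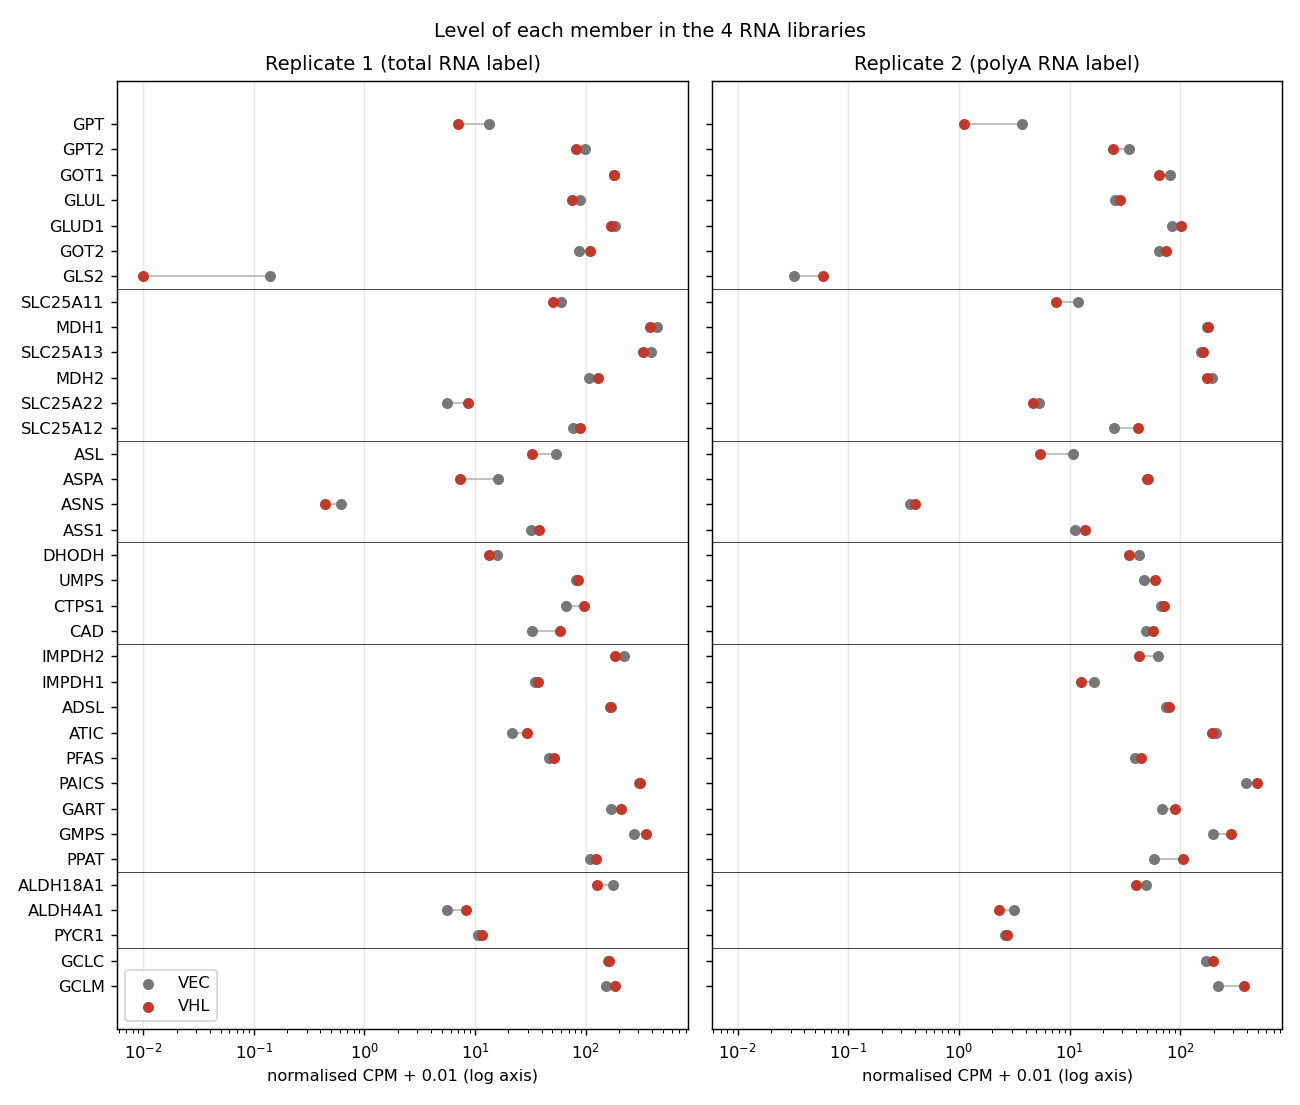
Normalised CPM + 0.01 (log axis) of the 35 genes in replicate 1 (left) and replicate 2 (right), with VEC in grey and VHL in red, a line joining the libraries of a pair, and horizontal rules between roles. GPT and ASL are lower in VHL in both panels, and most genes sit further left in replicate 2 than in replicate 1.

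ASL, argininosuccinate lyase, completes the path from aspartate and citrulline to arginine and fumarate. It fell by 0.86 on the log2 scale, or 1.81-fold. Counts were 1245 in VEC and 607 in VHL of replicate 1, and 494 and 221 in replicate 2, or 53.8 and 32.5 then 10.8 and 5.41 normalised CPM. VHL was again the lower library of each pair, and the groups overlapped because both replicate 2 libraries were below both replicate 1 libraries. The pair changes were -0.72 and -0.99, with -0.86 ± 0.24 (SE) in the blocked fit (edgeR, adjusted p = 0.0152). In the group-only fit the change was -0.77 ± 1.41 (adjusted p = 0.999991, edgeR).

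ASS1, argininosuccinate synthase, acts just before ASL and is the step that takes up aspartate. It had 32.2 and 37.7 CPM in replicate 1 and 11.2 and 13.9 in replicate 2, higher in VHL in each pair by 0.23 and 0.31, and did not pass (adjusted p = 0.786, edgeR). The neighbouring steps of the argininosuccinate path thus had changes of opposite sign in both pairs, although the difference between the genes was not tested. ASPA, which splits N-acetylaspartate into aspartate and acetate, went from 376 to 135 counts between VEC and VHL of replicate 1, and from 2328 to 2030 in replicate 2. The pairs thus gave -1.16 and -0.04, unequal parts of a fitted -0.55 ± 0.23 (adjusted p = 0.234, edgeR). The span of ASPA overlaps that of SPATA22 in the RefSeq annotation, and whether strand was used in the counting is not stated. ASNS, asparagine synthetase, had 14 and 8 counts in replicate 1 and 16 in each replicate 2 library. Its span overlaps that of the lncRNA CZ1P-ASNS in RefSeq, and how reads in overlapping genes were counted is not stated, so this low count is uncertain.

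The malate dehydrogenases of the malate-aspartate shuttle and the mitochondrial carriers showed no common direction. None of these 6 genes, which leave out the transaminases GOT1 and GOT2 described above and include a glutamate carrier outside the cycle, passed the test, 3 had a fitted change above 0 and 3 below, and the median was -0.02. SLC25A12 encodes an aspartate-glutamate carrier of the inner mitochondrial membrane. VEC and VHL held 1788 and 1644 counts in replicate 1 and 1140 and 1690 in replicate 2, normalised changes of 0.19 and 0.73 (blocked 0.46 ± 0.21, adjusted p = 0.312, edgeR). SLC25A11, the malate-oxoglutarate carrier, had 1374 and 936 counts, then 545 and 305, normalised changes of -0.24 and -0.67 (blocked -0.45 ± 0.22, adjusted p = 0.374, edgeR). These carriers work in the same cycle, and their changes had opposite signs in each pair. SLC25A13, the second aspartate-glutamate carrier, and the malate dehydrogenases MDH1 and MDH2 had fitted changes between -0.09 and 0.05. SLC25A22, a glutamate carrier, had 0.62 in one pair and -0.18 in the other.

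Pyrimidine synthesis had 4 members, of which 3 were higher in VHL in both pairs and 1 lower, with 0 calls. CAD carries the first steps of the path on one protein, including the step that adds aspartate. Its level was 32.6 CPM in VEC and 58.3 in VHL of replicate 1, and 49.0 and 56.6 in replicate 2. The changes of 0.84 and 0.21 were of the same sign and unequal in size (blocked 0.52 ± 0.21, adjusted p = 0.215, edgeR). CTPS1, which makes CTP from UTP with glutamine, changed by 0.51 and 0.11 (adjusted p = 0.654, edgeR). UMPS, which makes UMP from orotate, had a fitted change of 0.20. DHODH, the mitochondrial enzyme that makes orotate, had a fitted change of -0.26 and was the one lower in both pairs.

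**Figure D2:**
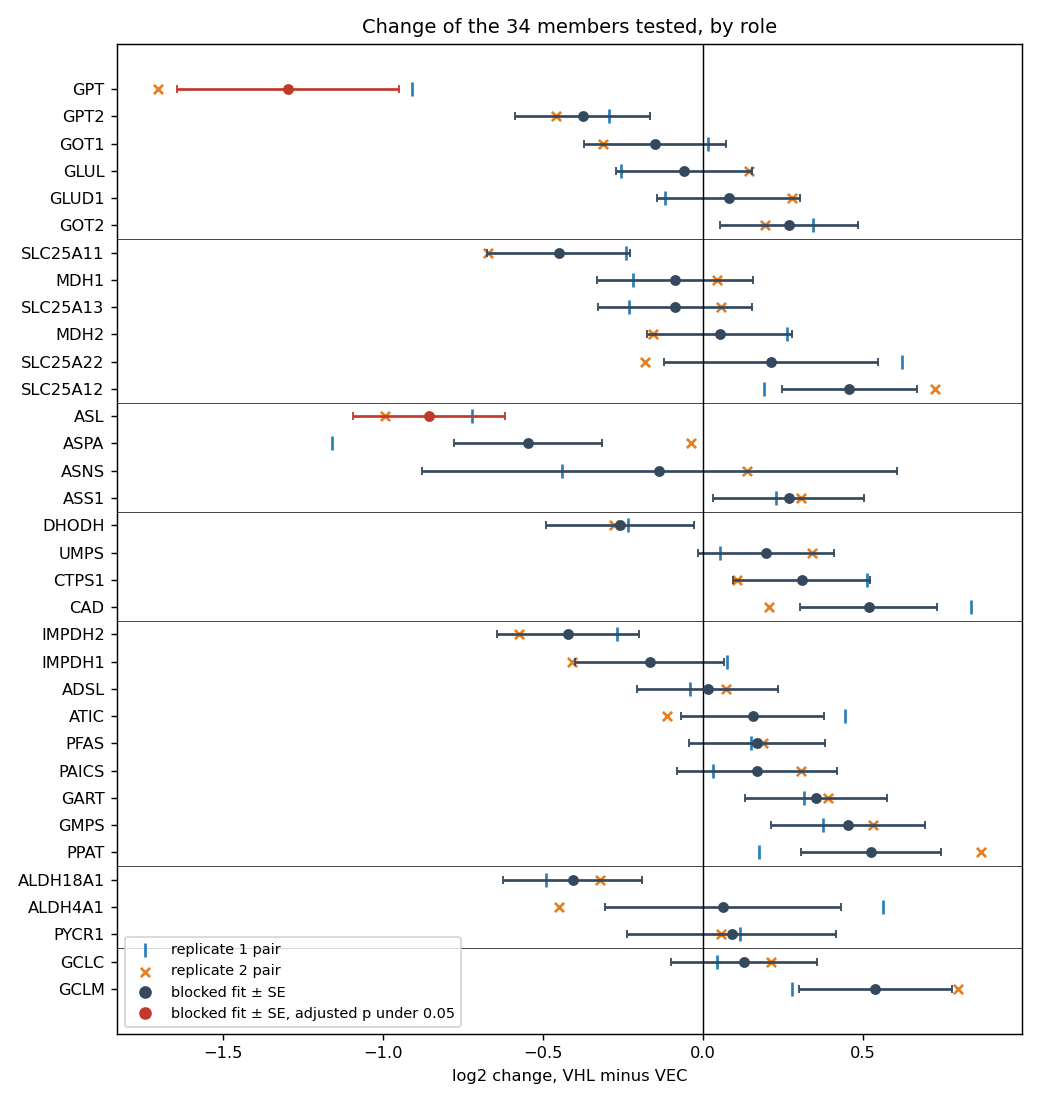
Log2 change, VHL minus VEC, of the 34 tested genes in the blocked fit (circles, bars are SE; red for an adjusted p under 0.05), with the replicate 1 pair (blue ticks) and the replicate 2 pair (orange crosses); horizontal rules separate roles. GPT and ASL are the red points, at -1.30 and -0.86, and no gene lies above 0.54 in the fit.

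Purine synthesis was the role with the most members, and 7 of 9 had a fitted change above 0, with a median of 0.17, but 0 passed the test. Over protein-coding genes 7094 of 13908 lay above 0, with a median of 0.01, and the difference was not tested. PPAT, the amidotransferase of the first committed step, had 109.1 and 123 CPM in replicate 1 and 58.4 and 106.8 in replicate 2. Its changes were 0.18 and 0.87, the larger in replicate 2, and the fitted 0.52 ± 0.22 did not pass (adjusted p = 0.222, edgeR), though it did under a filter of at least 20 counts in every library (adjusted p = 0.0323). GMPS, which aminates XMP to GMP with glutamine, had 273 and 354 CPM, then 199 and 288. Its changes of 0.37 and 0.53 were close in size (blocked 0.45 ± 0.24, adjusted p = 0.441, edgeR), and DESeq2 with the block called it (0.42 ± 0.07, adjusted p = 1.61e-07). GART, which carries several steps of purine ring synthesis, was also called there (0.32 ± 0.08, adjusted p = 0.00227, DESeq2) and had 0.35 ± 0.22 in edgeR.

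PAICS shares the promoter interval shown above with PPAT, and the annotated spans of these genes overlap in RefSeq. It changed by 0.03 and 0.31 in the pairs, less than PPAT in each. PFAS, ADSL and ATIC, of the same path, had fitted changes between 0.01 and 0.17. The IMP dehydrogenases, on the branch to guanine nucleotides, were the 2 purine members below 0. IMPDH2 had a fitted change of -0.42 and IMPDH1 of -0.17, while GMPS, the next step of that branch, was above 0.

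ALDH18A1, the synthase that turns glutamate into the precursor of proline and ornithine, had 178 and 126 CPM in replicate 1 and 49.4 and 39.5 in replicate 2. It was lower in VHL in each pair, by -0.49 and -0.32, and did not pass in edgeR (blocked -0.41 ± 0.22, adjusted p = 0.440), but was called by DESeq2 with the block (-0.44 ± 0.09, adjusted p = 3.97e-05). PYCR1, which completes proline synthesis, changed by 0.12 and 0.06. ALDH4A1, which returns proline carbon to glutamate, had 0.56 in one pair and -0.45 in the other.

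Glutamate-cysteine ligase, the first step of glutathione synthesis, is made of the catalytic subunit GCLC and the modifier subunit GCLM. GCLM had 152 and 184 CPM in replicate 1 and 219 and 381 in replicate 2, higher in VHL by 0.28 and 0.80. Its fitted change of 0.54 ± 0.24 was the highest of the members and did not pass (adjusted p = 0.270, edgeR), though it did under the filter of 20 counts in every library (adjusted p = 0.0379). GCLC changed by 0.04 and 0.21 (adjusted p = 0.953, edgeR). Both subunits were higher in VHL in each pair, with the modifier subunit further from 0.

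Across the 34 genes, 14 were higher in VHL in both pairs (41.2%), 8 lower in both (23.5%) and 12 mixed (35.3%). Over protein-coding genes these shares were 29.8%, 29.2% and 41%, the last including genes with no change in a pair. A change of at least 0.5 in the same direction in both pairs was found for GPT and ASL alone of the members, both lower, a size that 5.94% of protein-coding genes reached downward and 3.38% upward. The changes of the pairs correlated at r = 0.50 across the members and at 0.41 across 13908 protein-coding genes (rho = 0.46 and 0.37). These are correlations across genes that share libraries and are given as a description. Whether a gene's change differed between the pairs was not tested, since the block and the group leave 1 residual degree of freedom.

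**Figure D3:**
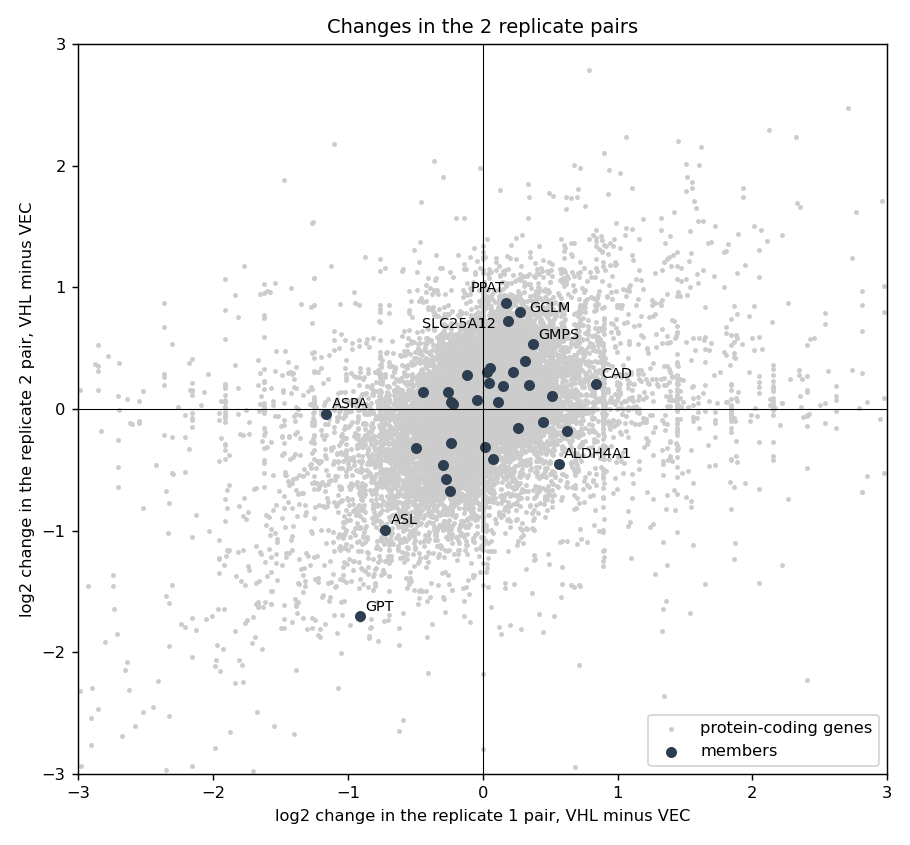
Log2 change, VHL minus VEC, in the replicate 1 pair (x) and the replicate 2 pair (y) for protein-coding genes (grey, axes limited to 3 in size) and the 34 tested members (dark). GPT and ASL lie in the lower left, at -0.91 and -1.70 and at -0.72 and -0.99, while ASPA lies on the horizontal axis and PPAT near the vertical one.

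The gap between replicates was larger than the difference between groups for most members. In the VEC libraries the median size of the gap was 1.18 on the log2 scale and in the VHL libraries 1.09, while the median size of the change within a pair was 0.26 and 0.29. The gap between the VEC libraries exceeded both pair changes for 28 of the 34, and 26 were lower in VEC of replicate 2 than of replicate 1. ATIC, the last enzyme of the purine ring, went the other way, at 21.7 and 29.5 CPM in replicate 1 and 211 and 195 in replicate 2. Its span overlaps that of FN1 in the RefSeq annotation.

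Pseudogene counts differed along with this gap, and their part in it was not tested. The tables hold 63 pseudogene symbols formed from the symbol of a member, for 11 of the members, and 36 of the 63 had 0 counts in both replicate 1 libraries while 56 were above 0 in both replicate 2 libraries. GLUL took 2069 and 1394 counts in replicate 1, where its 6 pseudogenes took 22 and 11. In replicate 2 the pseudogenes took 2813 and 2373 counts, or 70.5% and 67.1% of the sum of gene and pseudogenes. For ASS1 and its 14 pseudogenes that share rose from 9.15% and 5.38% to 73.5% and 71.4%, and for IMPDH1 from 3.22% and 3.23% to 69.4% and 69.6%. ASNS had fewer counts than its pseudogenes in both replicate 2 libraries, at 94.8% and 95.7%. The symbols PAICSP5 and PAICSP6 had the same counts in replicate 2, 1153 in VEC and 1406 in VHL. Within a number the shares of VEC and VHL lay within 8 percentage points of each other, except for ASNS in replicate 1 (0% and 55.6%). How reads that map to several places were counted is not stated. GPT has no such symbol and ASL has 1, with 28 counts at most. When each member was summed with its pseudogenes, the same 2 genes were called, GPT at -1.30 (adjusted p = 0.0108) and ASL at -0.86 (adjusted p = 0.0139, edgeR). Members with more pseudogene counts moved further and did not pass. ASNS turned sign, from -0.14 to 0.49. GLUL went from -0.06 to -0.14, GOT2 from 0.27 to 0.19 and ASS1 from 0.27 to 0.18.

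**Figure D4:**
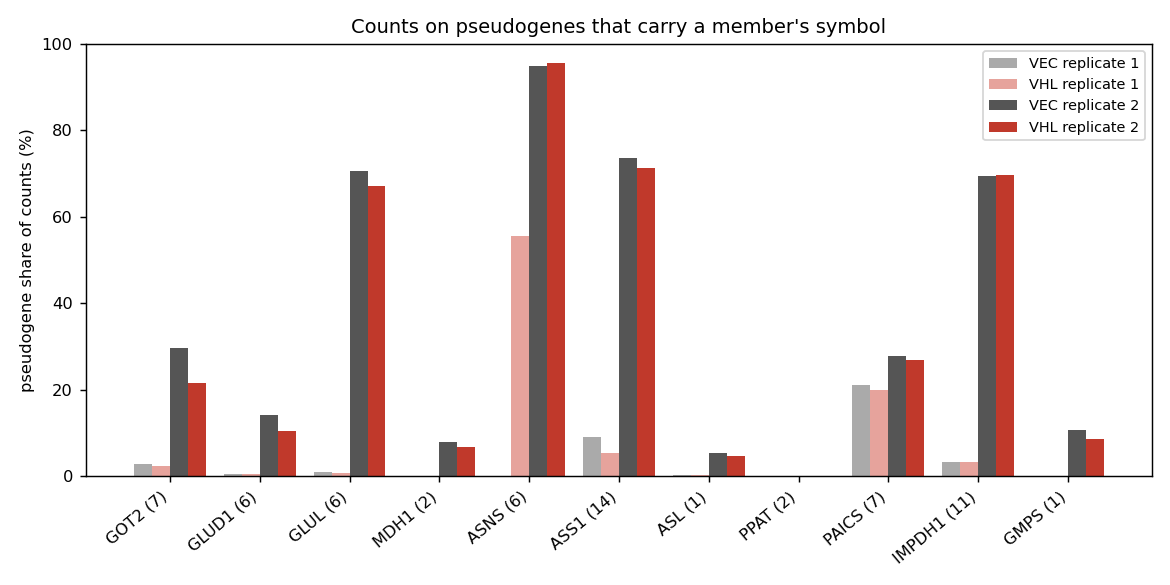
Counts on pseudogenes that carry the symbol of a member, as a percentage of the sum of the gene and those pseudogenes, in the 4 libraries; the number of pseudogene symbols stands in brackets after each gene. Shares are at most 21.1% in replicate 1 except for ASNS in VHL, which had 8 counts on the gene and 10 on pseudogenes, and at least 67.1% in replicate 2 for ASNS, ASS1, IMPDH1 and GLUL.

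Other genes of these pathways were also mostly not called. The list held 75 genes of purine, pyrimidine, folate, proline, glutamine, aspartate and glutathione metabolism, of which 73 were tested (not ARG1 and GOT1L1). In the blocked fit 2 fell and 0 rose (2.74%), close to the 3.1% of all genes and 3.65% of protein-coding genes called in either direction. The median was -0.07, beside -0.03 over all genes and 0.01 over protein-coding genes. SHMT2, the mitochondrial serine hydroxymethyltransferase that feeds one-carbon units to purine and thymidylate synthesis, fell, with 320 CPM in VEC and 123 in VHL of replicate 1 and 92.6 and 30.7 in replicate 2. Its pair changes were -1.38 and -1.59 (blocked -1.49 ± 0.23, adjusted p = 3.06e-08, edgeR). GSS, glutathione synthetase, which completes the path that GCLC and GCLM begin, also fell, at 119 and 78.3 CPM, then 28.5 and 13.3. Its pair changes were -0.60 and -1.10 (blocked -0.84 ± 0.21, adjusted p = 0.00536, edgeR). MTHFD2, which acts after SHMT2 in the mitochondrial folate path and was chosen after its values were seen, was higher in VHL in each pair, at 0.48 and 0.68, and did not pass (adjusted p = 0.163, edgeR), though DESeq2 with the block called it (adjusted p = 8.26e-08).

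SLC1A1, the carrier that brings aspartate and glutamate into the cell and the gene in the title of the series, changed by -2.41 and -2.24 in the pairs, more than any of the 34 enzymes and carriers in each pair.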

How the data were processed

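RNA-seq was analysed for 2 VEC and 2 VHL libraries of UM-RC-2, grouped and numbered by their titles. The values are raw counts per gene symbol deposited by the authors, from alignments to hg19 per the file headers. featureCounts and HOMER are named in the submitters' processing notes, without role or version. The aligner, annotation, strand and treatment of reads with several alignments are not given in the sources used here. H3K27ac tables name regions without positions and were not used here.

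Genes passing filterByExpr (24417 of 43682) were tested with edgeR 4.0.16 in R 4.3.3: TMM, glmQLFit and glmQLFTest, two-sided, group plus replicate number, Benjamini-Hochberg over all genes, threshold 0.05. SE was taken from the change and its F statistic (size over root F). CPM use TMM-scaled totals of tested genes, and pair changes a prior count of 2. Gene classes came from RefSeq GRCh38.p14 (42740 symbols matched, 97.8%). The numbers were used as a block because the comparison was set within each replicate number and the alignment names differ in form between the numbers. The molecule label also differs between them. Deviations from the group means, taken from these same counts, correlated at 0.983 between same-numbered libraries. On simulated counts for the 24417 genes the blocked fit recovered 90 of 91 genes changed by 2 on the log2 scale and 51 of 109 changed by 1, with 4 false calls. The group-only fit recovered 0 of either. The simulation used the common dispersion of the blocked fit, a separate level for each replicate number and the same change in both pairs. Changed genes were taken only from those with higher mean counts. The simulated counts were thus built as the blocked fit assumes, and cannot show which fit suits these data.

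Alternatives were DESeq2 1.42.0, other scalings and filters, protein-coding genes alone, members summed with their pseudogenes, single pairs and left-out libraries. Members and lists were chosen with earlier results of these data known. Named were members that passed or changed by at least 0.5 in both pairs, then up to 2 per role by size. Values of the remaining members were added after they were seen.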

Additional observations from a re-analysis of the deposited data

How the results depend on the processing

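The replicate block decided the calls. With no replicate block, 0 of all genes, 0 members and 0 other pathway genes passed in edgeR, and the members' median was 0.013. DESeq2's Wald test with no replicate block called 6 genes, 0 members and 0 other pathway genes, at a median of -0.0041. Without 1 library each and with no replicate block, which leaves 1 library in an arm that is assumed to vary like the other, counts of calls were 0 throughout and the median ran from -0.345 to 0.625 (-0.185 without VEC replicate 2 and 0.376 without VHL replicate 2). With the block, calls over all genes rose as well in some alternatives, from 756 of 24417 in the main fit. The stricter filter called 1181 of 12141 genes, 4 of 33 members and 13 of 67 other pathway genes. The members added were PPAT (adjusted p = 0.0323, edgeR) and GCLM (adjusted p = 0.0379, edgeR). DESeq2's Wald test called 1215 of 24417 genes, 4 of 34 members (ASL, GART, GMPS and ALDH18A1) and 10 of 73 other pathway genes, at a median of 0.033. Protein-coding genes alone gave 998 of 13908 genes, 10 of 73 other pathway genes, a median of 0.048 and the same 2 members. Library totals alone gave 5 other pathway genes and a median of 0.084. The median was 0.037 with DESeq2 size factors, 0.088 with TMM within each pair, 0.050 with no filter, 0.048 without replicate 2 and 0.065 without replicate 1. ASL was called in each of the 9 fits with the block and GPT in 8, with no adjusted value in DESeq2.

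Leaving out 1 library without the block turned the sign of 12 of the 16 members named by rule, and 1 arm then holds a single replicate number. Over all left-out fits and single pairs, changes ranged from -2.94 to 0.122 for GPT, -2.58 to 0.808 for ASL, -1.42 to 0.627 for GPT2, -0.028 to 0.514 for GOT2, -0.305 to 1.37 for SLC25A12, -2.25 to 1.27 for SLC25A11, -2.28 to 0.843 for ASPA, -0.642 to 1.20 for ASS1, -1.52 to 0.747 for ALDH18A1, -1.28 to 1.44 for PYCR1, -0.056 to 1.04 for GCLM and -0.047 to 0.267 for GCLC. Sign changes between these ends were 0.563 for ASPA without VHL replicate 1, -0.286 for ASS1, -0.544 for PYCR1 and -0.221 for SLC25A12 without VEC replicate 2, and 0.158 for ALDH18A1, 0.0216 for ASL, 0.277 for GPT2 and 0.504 for SLC25A11 without VHL replicate 2. Few counts limit the precision for ASNS and GLS2, with at most 16 and 3 in a library.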
